A study of Drosophila melanogaster with 3 samples.

Results

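The peaks described here are promoter peaks of the GFP-tagged zinc finger protein zf30C at one-directional starts of *Drosophila melanogaster* genes. A peak is a summit of the authors' list thresholded on the irreproducible discovery rate (IDR), which scores how well the order of regions is shared by replicates. A peak was a member when its summit lay within 500 bp of the start of a protein-coding transcript and every protein-coding start within that distance was on the same strand. There were 1049 such peaks among 3567, or 29.4%, and they lay at 923 genes. The other peaks comprised 224 with starts on both strands within 500 bp, called divergent here, and 2294 with no protein-coding start in the window. Whether a divergent summit lay between its starts, and whether these pointed away from each other, was not checked. Chromatin immunoprecipitation with sequencing (ChIP-seq) was made on whole embryos, male and female pooled, collected at 0 to 24 h, of a transgenic line that stably expressed zf30C with GFP at its C-terminus. The 3 libraries were biological replicates 1 to 3 of this single group. One free-text label calls them input controls, whereas the antibody target is given as zf30C and the accompanying notes set each library against a control alignment, so they were treated as immunoprecipitated samples. No control library was analysed here, and the lists hold no read counts, so the depth is unknown.

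A promoter is the DNA around a transcription start, where core elements such as the TATA box and the initiator position the polymerase and where sequence-specific factors bind upstream. A start that is transcribed in one direction, with no coding start on the other strand close by, allows the position of a bound factor to be read as upstream or downstream of the gene. Zinc finger proteins of the C2H2 class are the largest group of sequence-specific DNA-binding proteins in flies, and GAGA factor, a zinc finger protein that binds GAGAG repeats, is well studied at fly promoters.

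Windows of 101 bases centred on the summit are shown for 7 strong peaks, read on the strand of the gene from Release 6, the assembly that dm6 denotes. None of these windows overlaps an annotated exon. They are shown because they hold, or in the last 2 cases lack, the short words that led a search of summits against their flanks. Capitals mark, on either strand, the word ACACTG. They also mark a word that is partly the same when shifted, AGTGTA. The last marked word, which likewise shares letters with the first, is CACTGA.
cbt (chr2L:480033-480133, minus strand): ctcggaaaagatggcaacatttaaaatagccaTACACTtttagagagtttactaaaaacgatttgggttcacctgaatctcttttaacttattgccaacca
numb (chr2L:9449636-9449736, plus strand): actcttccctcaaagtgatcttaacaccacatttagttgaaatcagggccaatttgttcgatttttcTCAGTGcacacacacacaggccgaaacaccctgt
gro (chr3R:26041614-26041714, plus strand): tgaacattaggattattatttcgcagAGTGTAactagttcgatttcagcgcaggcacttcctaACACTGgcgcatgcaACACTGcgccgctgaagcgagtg
Ldh (chr3L:6262864-6262964, minus strand): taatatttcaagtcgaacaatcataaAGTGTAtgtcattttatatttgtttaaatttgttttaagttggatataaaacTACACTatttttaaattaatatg
Acbp1 (chr2L:8162460-8162560, minus strand): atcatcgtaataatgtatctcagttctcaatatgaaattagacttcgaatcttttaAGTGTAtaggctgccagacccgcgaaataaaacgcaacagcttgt
aay (chr3L:9423014-9423114, plus strand): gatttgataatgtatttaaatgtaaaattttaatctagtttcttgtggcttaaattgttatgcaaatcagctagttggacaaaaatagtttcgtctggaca
gish (chr3R:16280679-16280779, plus strand): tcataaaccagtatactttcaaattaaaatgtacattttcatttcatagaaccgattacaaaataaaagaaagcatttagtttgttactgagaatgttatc
The window of gro, which encodes the corepressor Groucho, held 3 matches, and that of Ldh, lactate dehydrogenase, held 2. The windows of cbt, a zinc finger transcription factor, of numb, an inhibitor of Notch signalling, and of Acbp1, an acyl-CoA binding protein, held 1 each. The windows of aay, a phosphoserine phosphatase, and of gish, a casein kinase, held none although their peaks were stronger than those of gro, Ldh and Acbp1. Of 22 such windows among the 40 strongest one-directional peaks, 8 held a match.

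The one-directional peaks had pooled signals from 193.1 to 12466, with a median of 321.0 in the authors' units, and their regions had a median width of 440 bp. They made up 43 of the 100 strongest peaks. Of the 1049, 500 lay in the upper 1783 of the list. Divergent peaks were of lower signal, with a median of 285.3 and 40.6% in the upper 1783, against 47.7% of one-directional peaks. Signal decided which summits entered the list, so this is a description. Of 5708 one-directional summits, counting both the peaks and the 4659 lower-ranked regions of the pooled list, 18.4% were peaks. Of 4152 genes with a one-directional pooled summit, 22.2% had a peak.

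The strongest peak lay at px (plexus, FBgn0003175), a gene of wing vein patterning, on arm 2R. Its summit was 202 bp upstream of a px start that is not the gene's outermost of 3, and the replicates' own summits lay 195, 202 and 204 bp upstream. The peak of zf30C itself (FBgn0270924) had a pooled signal of 8287. It differed from most strong peaks in lying 29 bp downstream of the start, and in replicates 1 to 3 the own summits lay at 29, 29 and 46 bp. The transgene carries tagged zf30C, and the part of its copies in this signal was not tested. At aay (FBgn0023129) the signals were 3712, 1890 and 1460 in replicates 1 to 3 and its own summits lay 189, 194 and 204 bp upstream. All 3 replicates thus placed these peaks on the same side of the start, with own summits of px differing by less than 10 bp.

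Among the next strongest peaks, cbt had replicate signals of 3064, 1598 and 1260, and ranks 6, 6 and 7. Its summit, 395 bp upstream, was the farthest from a start among the 12 strongest one-directional peaks, and in a region that lies within another gene. At numb the signals were 3410, 1369 and 946.7. Replicate 3 ranked that peak 22, lower than replicates 1 and 2, which ranked it 5 and 8. At gish the ranks were 7, 10 and 13. Fkbp14, which encodes a peptidyl-prolyl isomerase of the endoplasmic reticulum, had replicate signals of 2666, 1143 and 1164 with its summit 94 bp upstream. The peak of bib, big brain, a neurogenic membrane protein, lay 181 bp upstream with signals of 2323, 1090 and 845.8, and an opposite non-coding start lay in its window. Signal scales differ between lists, so only the ranks can be compared between replicates. Of the 12 strongest peaks, the zf30C peak alone lay downstream, and the other summits were 45 to 395 bp upstream.

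One-directional peaks lay mostly upstream of the start. Their median position was −64 bp, with quartiles of −203 and 27 bp, against −26 bp, with quartiles of −152 and 80 bp, for lower-ranked regions. Upstream summits were 709 of 1049, 67.6% (exact 95% Clopper-Pearson interval 64.7 to 70.4%), against 57.5% of 4659 lower-ranked regions. The odds ratio was 1.54 (two-sided Fisher's exact test over summits, p = 1.64e-09). Against the 1033 one-directional regions next in rank below the list, of which 62.7% were upstream, the odds ratio was 1.24 (p = 0.0214, Fisher's exact test). The intervals and tests over summits cover counting error only, since all summits come from the same 3 replicates. A summit at 100 to 250 bp upstream was found for 23.8% of peaks, against 16.5% of lower-ranked regions and 18.2% of those next in rank. Summits over 100 bp downstream made up 15.6% of peaks, against 23.1% of lower-ranked regions and 13.1% of those next in rank. Within 50 bp of the start lay 26.4% of peaks, against 27.9% of lower-ranked regions and 36.7% of those next in rank.

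**Figure D1:**
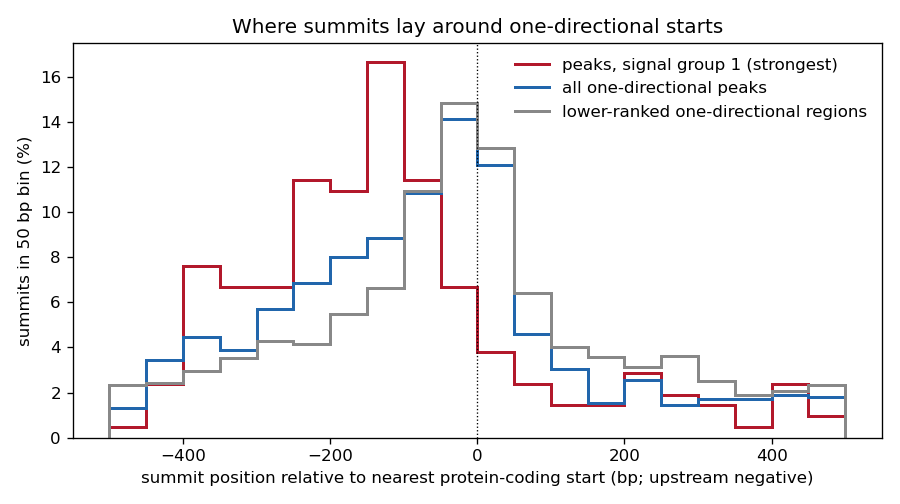
Share of summits (%) in each 50 bp bin of position relative to the nearest protein-coding start, upstream negative, for the strongest of 5 signal groups, for all 1049 one-directional peaks and for 4659 lower-ranked regions. The strongest group has its median at −138 bp, all peaks at −64 bp and lower-ranked regions at −26 bp.

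Position changed with signal. The peaks were ordered by pooled signal and split into 5 signal groups of 209 or 210, group 1 being the strongest. From group 1 to group 5 the median position was −138, −100.5, −65, −34 and −30 bp. The share upstream was 81.0, 62.4, 69.5, 61.0 and 64.1%, highest in group 1 and without a steady fall after it. Among the regions next in rank below the list it was 62.7%. Over 100 bp downstream lay 12.4% of group 1 and 25.7% of group 2. Group 1 had 39.0% of its summits at 100 to 250 bp upstream and 10.5% within 50 bp of the start, and group 5 had 14.8% and 39.2%. The 50 strongest peaks were upstream in 96.0% of cases and 72.0% lay 100 to 250 bp upstream. Median GC content of the 201 bp around the summit moved with signal too, at 35.8% in group 1 and 44.8% in group 5, and its part in the positions was not tested. Median region width was 578.5, 310.5, 256, 440 and 440 bp in groups 1 to 5. The same 440 bp was the median of all one-directional peaks and of lower-ranked regions. The regions of the weaker peaks at Dr, bcd and Scr had exactly this width, with the summit at the centre. Whether 440 bp was a preset width was not tested, so the widths were not read as a trend with signal.

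**Figure D2:**
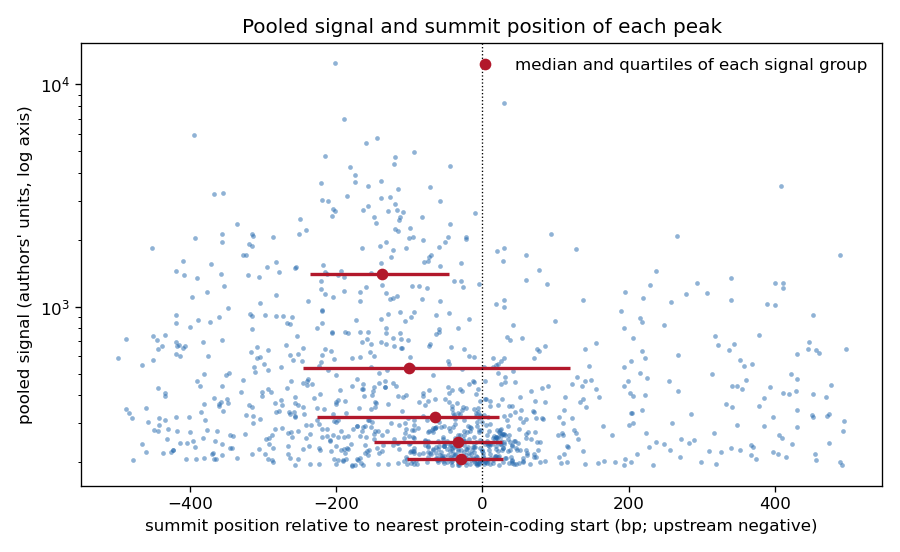
Pooled signal in the authors' units (log axis) against summit position in bp for each of the 1049 one-directional peaks. Red points and bars give the median position and quartiles of each of the 5 signal groups, whose medians run from −138 bp at high signal to −30 bp at low signal.

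The replicates' own lists showed the same order when each replicate's own summits and own signals were used. In replicates 1, 2 and 3, 66.5, 67.8 and 66.9% of own summits were upstream (67.1% ± 0.64, SD, n = 3), against 57.7, 52.4 and 52.4% of one-directional regions of each own list outside the IDR list. The share at 100 to 250 bp upstream was 38.5, 37.8 and 37.8% in the highest of 5 groups by own signal, against 21.6, 21.1 and 20.6% in the lowest. The difference was 16.9 ± 0.26 percentage points (SD, n = 3). An exact sign-flip permutation test over the replicates gave p = 0.25, the smallest that 3 replicates allow. Within 50 bp of the start lay 9.13, 9.57 and 13.9% in the highest group, against 45.2, 33.0 and 30.6% in the lowest. The 2 groups did not overlap over replicates on either measure, and replicate 1 had the widest gap near the start. These peaks were chosen through the pooled signal of the same replicates, so the gradient in the own lists is not independent of the pooled one.

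**Figure D3:**
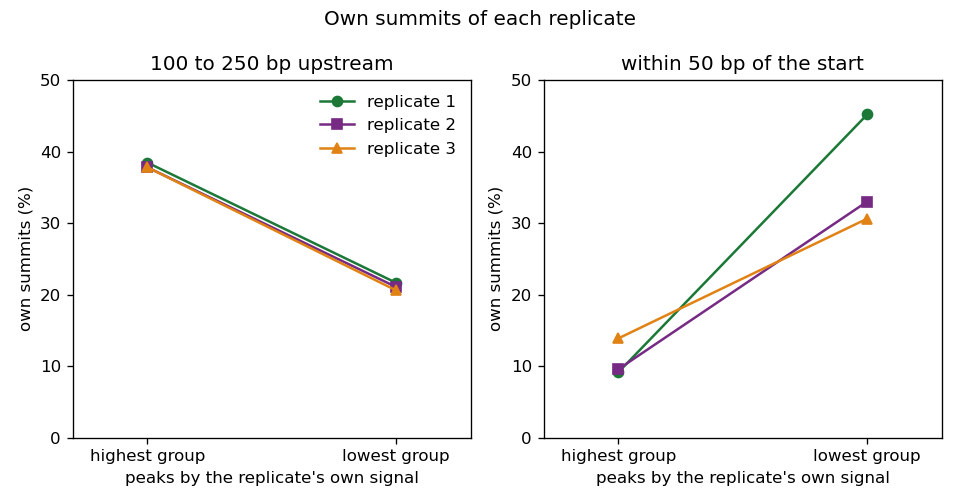
Share of own summits (%) at 100 to 250 bp upstream (left) and within 50 bp of the start (right), in the highest and the lowest of 5 groups of one-directional peaks by each replicate's own signal, with 1 line per replicate. On the left all 3 replicates are higher in the highest group, at 37.8 to 38.5%, against 20.6 to 21.6% in the lowest, and on the right all 3 are lower in it.

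Summits agreed closely between replicates. Of the 1034 peaks with a region in all 3 replicate lists, 894 (86.5%) had own summits on the same side of the start in all 3, comprising 621 upstream and 273 downstream or at the start. The median SD of the own summits was 21.5 bp. It was 11 bp in signal group 1 and 29.8 bp in group 5. There was no region in replicate 1 for 9 peaks, in replicate 2 for 3 and in replicate 3 for 3. The strongest of these were l(1)G0196, with pooled rank 1688, and Kap3, with rank 1719 and encoding a kinesin-associated protein, both without a region in replicate 1.

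Support of a peak by a replicate means here that one of the replicate's 3567 strongest regions overlapped it. All 3 replicates supported 655 of the one-directional peaks, 62.4% (59.4 to 65.4%), against 56.7% (49.9 to 63.3%) of divergent peaks. The difference did not pass the threshold of 0.05 (odds ratio 1.27, Fisher's exact test, p = 0.113), and it passed without replicate 1, at 74.4% against 62.1% (odds ratio 1.77, exact p = 0.000287). It also passed when only the 1783 highest regions of each replicate counted (odds ratio 1.40, exact p = 0.0341), and the direction turned among the upper 1783 peaks, at 96.0% against 96.7% (odds ratio 0.818, exact p = 1). Per replicate, 81.2, 82.2 and 86.9% of one-directional peaks were supported, against 88.4, 72.3 and 75.4% of divergent peaks, so that replicate 1 stood the other way. Support by all 3 was 100% in signal group 1, 98.1% in group 2, 72.9% in group 3, 34.8% in group 4 and 6.22% in group 5. The groups were formed from the pooled signal of the same 3 replicates, so this order is largely fixed by how they were made. The median percentile of own signal among all peaks was 47.0, 49.5 and 55.0 for one-directional peaks in replicates 1 to 3, against 44.0, 38.1 and 46.6 for divergent peaks. The mean difference was 7.57 ± 4.26 (SD, n = 3), with an exact permutation p = 0.25, the smallest possible.

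Some peaks were ranked very differently by the replicates. Among the upper 1783 of the list, Duox, which encodes an NADPH oxidase, had ranks 587, 759 and 7218 in replicates 1 to 3, with replicate 3 the lowest. Its pooled summit lay 311 bp upstream and the own summits 127, 116 and 281 bp upstream. The gene ana, which encodes a secreted glial glycoprotein, ranked 713, 2502 and 21478. Its pooled summit lay 217 bp upstream and the own summits 418, 227 and 238 bp upstream. The replicate ranks of Duox and ana may therefore belong to different summits. The spectraplakin gene shot went the other way, with ranks 4808, 1219 and 614, and lawc was lowest in replicate 2 at rank 8587, against 2030 and 888. No single replicate was the low one in all 4 cases.

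The starts themselves were mostly lone ones. A single protein-coding start lay in the window of 875 peaks (83.4%), and 26 windows held starts of more than 1 gene. An opposite-strand non-coding start lay in 41 windows, and for 121 peaks (11.5%) an opposite-strand protein-coding start lay within 1000 bp upstream of the start, beyond the window. The nearest start was the gene's outermost in 61.1% of peaks, against 66.4% of lower-ranked regions (odds ratio 0.794, Fisher's exact test, p = 0.00121). In signal groups 1 to 5 this share was 66.2, 61.0, 48.6, 62.4 and 67.5%, lowest in group 3. Peaks more often belonged to genes with more than 1 start, 63.6% against 54.2%. Among those genes alone the outermost share was 38.8%, against 38.1% (odds ratio 1.03, exact p = 0.720), an alternative chosen after seeing the data. The summit lay outside genes in 397 cases, within the same gene in 563, within another gene in 48 and within both in 41. There were 235 peaks on arm X, 216 on 3R, 209 on 2R, 204 on 3L, 179 on 2L and 6 on 4.

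Most genes had a single one-directional peak, 790 of the 923, whereas 117 had 2, 13 had 3, 2 had 4 and 1 had 5. The gene with 5 was shn, or schnurri, whose zinc finger protein acts in Dpp signalling. Its peaks lay at 5 positions from −143 to 368 bp around 3 of its starts, and had signals from 239.6 to 433.1. The Polycomb gene ph-p and the tropomyosin gene Tm1 had 4 peaks each. Those of Tm1 lay at −115, −368, −237 and −10 bp and had signals of 396.8, 389.1, 236.1 and 232.8. Peaks of a gene that share a region share replicate values.

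Near the 500 bp limit, the members just inside were apolpp at −499 bp with a signal of 585.9, Btk at 497 bp with 648.0 and CG33947 at 495 bp with 305.0. Just outside lay summits near Npc2b at −503 bp with 1067, eya at −504 bp with 376.6 and ago at 505 bp with 1124.

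The 3 words marked in the windows above were those of 6 letters with the highest excess of peaks with a match at the summit over the flanks, divided by the square root of the flank count plus 3. By the ratio of centre to flank alone, rarer words stood above the last of the 3. The 3 words were picked on 592 of the peaks, those on arms 2L, 2R and 3L, and counted on the other 457. There ACACTG was within 50 bp of 20.8% of summits, against 7.0% in windows of the same length 150 to 250 bp to either side. The shares for AGTGTA were 16.8% at the summits, against 5.69% in those flanking windows. For the remaining word of the 3 they were 14.0%, against 5.58%. Any of the 3 was in 33.3% of these centres, against 14.7% and 12.9% of the 2 flanks. Over all members it was in 32.4% (29.6 to 35.3%), against 15.7% of lower-ranked regions, 31.7% of divergent peaks and 15.7% of windows around all protein-coding starts. The share was 39.5, 44.3, 31.9, 24.3 and 22.0% in signal groups 1 to 5. Among members at least 100 bp upstream it was 32.1%, against 13.8% and 12.7% in the flanks. On the gene strand, 112 of 218 matches of the first word read as written and 106 as the reverse complement, and 19 lay within 10 bp of a start. Matches are descriptions, and no factor was assigned to these letters.

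GAGAG, the word of GAGA factor, was within 100 bp of 40.8% of summits (37.8 to 43.8%), against 30.8% of lower-ranked regions, 17.0% of divergent peaks and 25% of all protein-coding starts. Signal groups 1 to 5 had 38.1, 41, 39.0, 41.9 and 44.0%, without the decline of the 3 words above. TATCGATA, the DNA replication-related element, was in 3.15% of one-directional peaks, against 4.85% of lower-ranked regions, 11.6% of divergent peaks and 6.45% of all starts. With a 200 bp window for both the distance and the strand condition it was in 5.97% of members. Lower-ranked regions and divergent peaks were not counted with that window for any word. Whether the lower share of members held there is therefore not known. The shorter word CGATA, which every match of that element contains, was in 31.6% of one-directional peaks, against 30.5% of lower-ranked regions, 47.8% of divergent peaks and 37.1% of all starts, and in 37.5% of members with the 200 bp window.

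The TATA box word TATAAA was in 24.4% of one-directional peaks, against 20.9% of lower-ranked regions, 37.9% of divergent peaks and 26.9% of all starts. Counted where a TATA box lies in a core promoter, at −45 to −15 bp of the member's start, it was in 3.53%, against 4.70% of lower-ranked regions and 7.77% of all starts. The initiator word TCAGT lay within 10 bp of 19.5% of starts with a peak, against 17.1% and 13.1%. Every match of CACTGA, a word marked above, contains TCAGT on 1 of its strands. CAGGTAG, the word of the early embryonic factor Zelda, was in 0.381%, against 1.63% of lower-ranked regions and 1.08% of all starts.

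The core promoter word CAGCTG was in 10.1% of one-directional peaks, against 13.1% of lower-ranked regions and 13.4% of all starts. Another core promoter word, GGTCACA, was in 4.19% of one-directional peaks, against 5.64% of lower-ranked regions and 7.04% of all starts, and it was in 7.0% of members with the 200 bp window. TGACTCA, the AP-1 word, was in 1.43% of one-directional peaks, against 1.65% of lower-ranked regions and 1.59% of all starts. All words were searched on both strands, except the TATA box and initiator counted at fixed distances from the start, which were read on the gene strand. No test was made between sets.

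**Figure D4:**
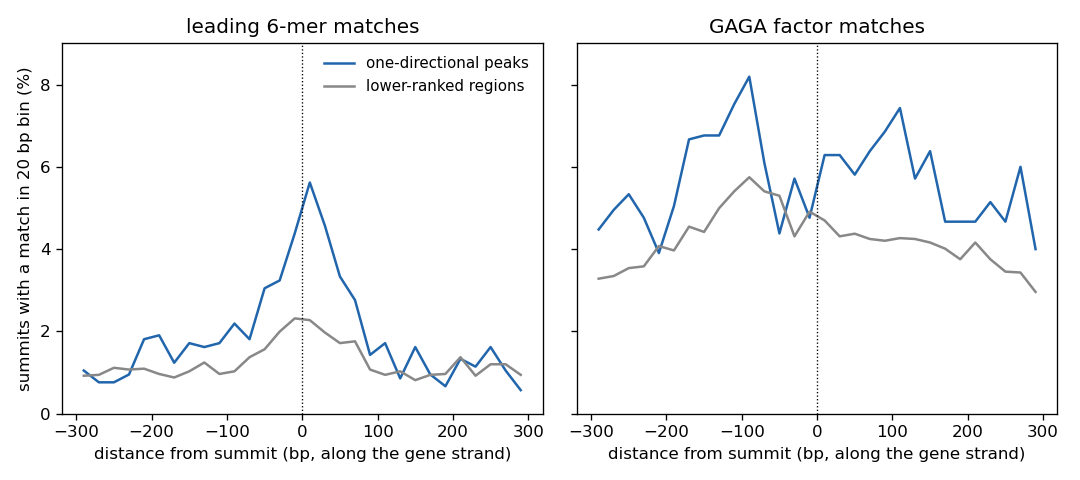
Share of summits (%) with a match whose centre falls in each 20 bp bin of distance from the summit, read along the gene strand, for ACACTG (left) and GAGAG (right), in 1049 one-directional peaks and 4659 lower-ranked regions. ACACTG rises to a narrow maximum at the summit, and GAGAG lies above the lower-ranked regions over most of the range, with no such maximum.

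Genes of 16 functional lists were counted against the 22.2% of all genes with a one-directional pooled region that had a peak. The share was above this in 13 lists. The highest was 9 of 17 genes of insulin, TOR and translation control kinases (52.9%, exact interval 27.8 to 77.0%), followed by 25 of 49 cytosolic ribosomal protein genes (51.0%, 36.3 to 65.6%) and 9 of 18 heat shock, chaperone and stress genes (26.0 to 74.0%). Cytoskeleton, adhesion and cell polarity genes had a peak in 21 of 47 cases, RNA-binding regulators in 13 of 30 and zinc finger transcription factors in 22 of 52. Lists near the share of all genes were homeobox genes with 15 of 54, basic helix-loop-helix (bHLH) and bZIP factors with 10 of 40 and axon guidance and synapse genes with 6 of 27. Their exact intervals held 22.2%. So did those of the EGF receptor, Notch, Wingless and Hedgehog, Dpp and JAK/STAT, and chromatin lists, whose shares were above it. Nuclear receptors and ecdysone genes, with 4 of 20, and cell cycle, apoptosis and replication genes, with 5 of 28, had lower shares. These are counts beside the background, without a test, since the lists were chosen with earlier results of these data known.

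**Figure D5:**
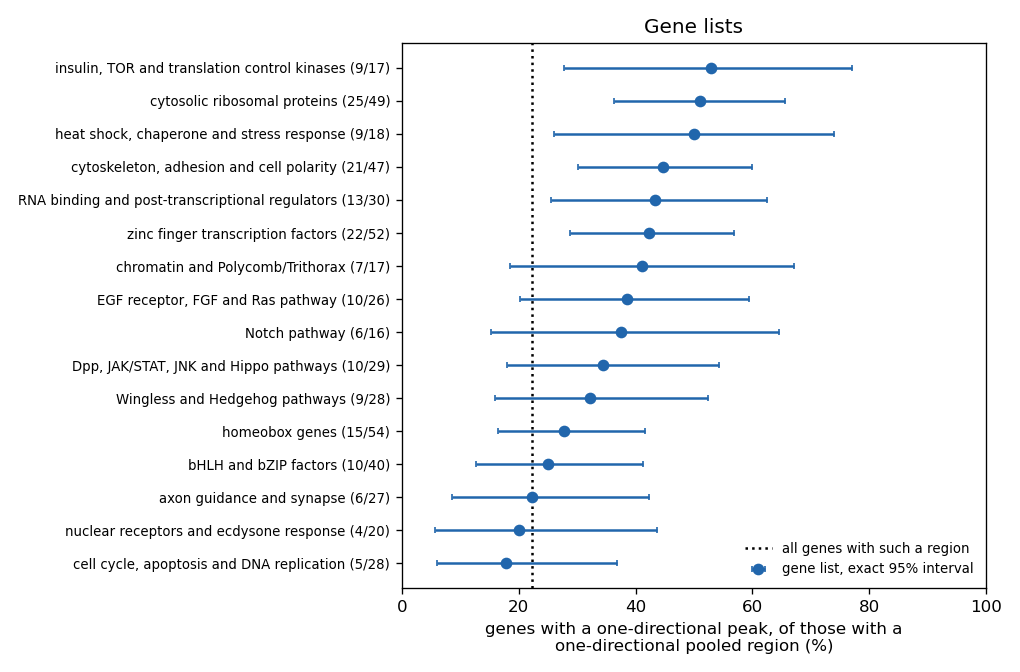
Share of genes (%) in each of 16 lists that had a one-directional peak, of those with a one-directional pooled region, with exact 95% intervals; counts stand beside the names. The dotted line is the 22.2% of all such genes, and 13 lists lie above it. The lists were chosen with earlier results of these data known.

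Ribosomal protein peaks lay close to the start. Of 25, 22 were within 50 bp, with a median distance of 15 bp, against 26.4% of all members and a median distance of 136 bp. RpS4 was the strongest, with replicate signals of 223.2, 154.5 and 219.8 and its summit 19 bp upstream. It ranked 1410, 889 and 488 in replicates 1 to 3, highest in replicate 3. RpL24 had 219.4, 103.7 and 137.3, 12 bp upstream, and RpL11 had 146.6, 128.4 and 139.9, 28 bp upstream. GAGAG was near 4 of the 25 summits, beside 40.8% of all one-directional peaks. For 3 ribosomal genes the 100 bases before the start are shown, as a contrast to the summit windows above, with the same 3 words in capitals.
RpL24 (chr2L:13395132-13395231, minus strand): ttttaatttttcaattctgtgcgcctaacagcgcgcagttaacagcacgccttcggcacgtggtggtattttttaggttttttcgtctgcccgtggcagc
RpL23A (chr3L:1668655-1668754, minus strand): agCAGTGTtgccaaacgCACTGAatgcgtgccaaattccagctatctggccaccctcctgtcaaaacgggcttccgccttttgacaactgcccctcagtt
RpS10b (chrX:19597931-19598030, plus strand): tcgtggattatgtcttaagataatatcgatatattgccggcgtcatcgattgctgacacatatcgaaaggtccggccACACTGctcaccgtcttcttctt
RpL24 had no match there, and RpS10b had 1 that lay close to its summit 23 bp upstream. RpL23A had 2 at the far end of the stretch. Its summit lay 65 bp upstream, and both matches were within 50 bp of it.

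Homeobox peaks had a median position of −100.5 bp, against −64 bp for all one-directional peaks. Their median distance from the start on either side was 120.5 bp, against 136 bp, and 5 of 16 lay within 50 bp. GAGAG was within 100 bp of 13 of the 16, beside 40.8% of all one-directional peaks. The strongest was that of hth, which encodes a cofactor of Hox proteins, with replicate signals of 860.5, 420.4 and 505.9 at 20 bp downstream. The Hox gene lab followed at 340 bp downstream with 791.4, 349.2 and 218.7, and the limb gene Dll at 82 bp upstream with 173.9, 74.89 and 153.6. Of these, lab ranked lowest in replicate 3 and hth and Dll highest there. Summit windows of 3 upstream homeobox peaks with GAGAG are shown, with GAGAG and CTCTC in capitals.
Dr (chr3R:29556179-29556279, plus strand): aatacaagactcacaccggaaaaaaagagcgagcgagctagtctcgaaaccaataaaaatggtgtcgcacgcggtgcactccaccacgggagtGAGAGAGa
bcd (chr3R:6759657-6759757, minus strand): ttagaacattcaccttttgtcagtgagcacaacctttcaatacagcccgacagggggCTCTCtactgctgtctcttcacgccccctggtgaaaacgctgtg
Scr (chr3R:6850029-6850129, minus strand): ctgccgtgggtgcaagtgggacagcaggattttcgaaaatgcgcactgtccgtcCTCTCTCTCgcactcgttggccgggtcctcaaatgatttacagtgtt
Dr encodes a homeobox protein of dorsoventral patterning, bcd the anterior morphogen and Scr a Hox protein, and their summits lay 157, 241 and 98 bp upstream.

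In the EGF receptor, FGF and Ras list 10 of 26 genes had a peak (38.5%, exact interval 20.2 to 59.4%), beside 22.2% of all such genes. The strongest were at edl, a regulator of ETS factors, with replicate signals of 1403, 600.7 and 474.0, stumps, an FGF receptor adaptor, with 1365, 671.9 and 362.7, and aos, a secreted inhibitor of the EGF receptor, with 1432, 492.1 and 343.7. All lay 114 to 336 bp upstream, and each ranked lowest in replicate 3. In the Notch pathway 6 of 16 genes had a peak (37.5%, exact interval 15.2 to 64.6%), again beside 22.2%. Beside numb, mam, a nuclear coactivator, had 860.5, 479.5 and 485.5 and lay 128 bp downstream. The receptor gene N had 532.0, 531.1 and 426.8 and lay 255 bp upstream. N ranked 473, 153 and 167, lowest in replicate 1. The receptor arr of Wingless signalling had 365.1, 173.5 and 144.6 at 322 bp downstream, and wit, a BMP receptor, had 311.6, 108.5 and 138.8 at 221 bp upstream. In the insulin and TOR list, REPTOR, a transcription factor downstream of TOR, had 1593, 605.2 and 647.1 at 157 bp upstream. The insulin receptor gene InR had 826.9, 430.7 and 462.9 at 60 bp downstream, and gig, which encodes the TOR inhibitor TSC2, had 257.5, 110.9 and 130.6 at 22 bp downstream.

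Among transcription factors, bowl, of the odd-skipped family, had signals of 1960, 990.3 and 714.9 with its summit 175 bp upstream, and Kah, a Snail-family protein, had 1216, 818.9 and 714.0 at 204 bp upstream. Kah ranked 112 in replicate 1 and 51 and 53 in replicates 2 and 3. For the nuclear receptor list, E23, an ecdysone-responsive transporter, had 1798, 697.1 and 492.9 at 212 bp upstream, and the nuclear receptor Eip75B had 352.4, 211.5 and 180.9 at 254 bp upstream. The bHLH factor dysf had 516.7, 189.2 and 136.1 at 419 bp upstream. Of chromatin genes, 7 of 17 had a peak (41.2%, exact interval 18.4 to 67.1%), beside 22.2% of all genes with a one-directional pooled region. The 3 strongest of these peaks lay at Utx, a histone demethylase, with 679.5, 251.1 and 250.3 at 195 bp downstream, at ph-p, a Polycomb group gene, with 392.9, 162.0 and 144.5 at 85 bp downstream, and at nej, which encodes the acetyltransferase CBP, with 382.0, 137.4 and 160.8 at 461 bp downstream. The 13 peaks of this list lay between −460 and 461 bp, with a median of 43 bp.

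Of the other lists, unc-5, a netrin receptor, had signals of 1671, 901.9 and 506.1 at 126 bp upstream and ranked 48, 43 and 116. The RNA-binding gene Imp had 264.1, 214.1 and 295.8 at 184 bp upstream, and ranked 318 in replicate 3, against 1144 in replicate 1. Its list had GAGAG near 13 of 16 summits, beside 40.8% of all one-directional peaks, and the chromatin list had it near 3 of 13, the Wingless and Hedgehog list near 3 of 11 and the Notch list near 2 of 8. The small heat shock gene Hsp26 had 602.9, 326.7 and 303.8 at 97 bp upstream, and fzr, an activator of the anaphase-promoting complex, had 661.1, 381.0 and 193.5 at 354 bp upstream. Hsp26 ranked 400, 343 and 305 and fzr 361, 270 and 578, so Hsp26 was the steadier of the 2.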

How the data were processed

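The deposited data were region lists on dm6: 1 per replicate, 1 pooled and 1 IDR list, each made from replicate and control alignments per the file headers and accompanying notes. Not given in the sources used here are the aligner, the peak caller and the IDR cutoff. The signal values are as the authors deposited them, in an unstated unit. The −log10 q-values the authors deposited were 1 constant in the IDR list and were not used. The deposited summit offset gave each summit, counted from 1. All 3567 IDR summits were the highest pooled summits by signal, and 0 coordinates lay beyond an arm end.

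Starts were those of 19253 protein-coding transcript positions (13945 genes, Ensembl release 115, BDGP6), on 6 arms; sequence was RefSeq Release 6. Lower-ranked regions were pooled summits outside IDR regions. Each member's replicate value was the highest overlapping signal of that replicate (minimum overlap 1 bp). Tests were Fisher's exact tests over summits and exact permutation over 3 replicates, at a threshold of 0.05, with Python 3.11.15, SciPy 1.17.1 and pandas 2.3.3; placement was tested on simulated data. Named genes were the 12 strongest members, up to 3 strongest of each list, the 4 most variable between replicates in the upper 1783, the 4 with most peaks and the 3 nearest the 500 bp limit on each side; members named for their sequence or for a missing region were chosen after their values were seen. The 16 lists, written from memory of gene functions, left 8 symbols unmatched. Members and lists were chosen with earlier results of these data known. The labels call the replicates biological without naming separate collections, so the permutation p-values may measure only technical spread. Fisher's exact tests over summits measure no spread between replicates.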

Additional observations from a re-analysis of the deposited data

How the results depend on the processing

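Upstream share (odds ratios 1.24 to 1.84) and outermost share kept their direction and side of the threshold under the other alternatives run: windows of 200 and 1000 bp, the upper 1783 peaks, peaks with all 3 replicates' support, each replicate left out, another start choice and the regions next in rank. The outermost share turned to an odds ratio of 1.03 among genes with more than 1 start. The number of members was 500 in the upper 1783 and 655 with support by all 3 replicates. The share of genes with a peak was 19.5% at 200 bp, 23.5% at 1000 bp, 11.2% in the upper 1783, 13.9% with all 3 supporting, and 15.1 to 16.4% without 1 replicate. GAGAG was at 23.5% of summits within 50 bp. Support against divergent peaks had an odds ratio of 0.818 (exact p = 1) in the upper 1783, 1.40 (exact p = 0.0341) with the 1783 highest regions of each replicate, and 1.13 to 1.77 without 1 replicate. The replicates' own upstream share was 66.3% at 200 bp, 63.4% at 1000 bp and 71.6% in the upper 1783. The cause of these shifts was not tested. No paired analysis was possible because there was no second group of samples to pair by replicate number; differences between kinds of peak were taken within each replicate.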
